A study of Mus musculus with 2 samples.

Results

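The genes described here are 9 components of Hedgehog reception and response: the antagonist Hhip, the receptor Ptch1, the co-receptors Gas1, Boc and Cdon, the transducer Smo and the transcription factors Gli1, Gli2 and Gli3. They were chosen by name and matched to array probe sets that carry a single gene symbol, and all 9 were found among 19938 genes measured in this way. Each of the 9 had 1 such probe set. Expression was measured in dermal cells of C57BL/6 mice transfected with siRNA against β-catenin (1 array) or with a control siRNA (1 array). Both cultures came from dorsal skin at postnatal day 0, were grown for 24 h in medium with 10% serum, and were exposed to 10 nM siRNA for 48 h. Small interfering RNA (siRNA) pairs with a complementary transcript and has it cut. The cells are a primary mixed culture, the reduction of β-catenin is partial, and the labels do not say how many pups or cultures stood behind an array.

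Hedgehog ligands bind Ptch1, which in their absence holds Smo inactive. Gas1, Boc and Cdon present the ligand to Ptch1, and once Smo is released it turns Gli2 and Gli3 from repressors towards activators of transcription. Gli1, Ptch1 and Hhip are themselves transcribed in response, so their levels are widely used as a readout of the pathway, and Ptch1 and Hhip feed back by binding ligand. In skin, Shh from the hair follicle epithelium signals to the dermal papilla and the surrounding dermis, and Wnt/β-catenin signalling acts in the same mesenchyme.

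The promoter sequences of Hhip, the one gene of the 9 that differed by over 1.5-fold, and of Ptch1, another readout gene that did not, are shown for comparison. Each is the 250 bases before the transcription start in RefSeq (GRCm38.p6), 5′ to 3′ on the gene's strand, at chr8:80058009-80058258 (minus strand) for Hhip and chr13:63565736-63565985 (minus strand) for Ptch1. Capitals mark the GC box 6-mer GGGCGG on either strand.
Hhip: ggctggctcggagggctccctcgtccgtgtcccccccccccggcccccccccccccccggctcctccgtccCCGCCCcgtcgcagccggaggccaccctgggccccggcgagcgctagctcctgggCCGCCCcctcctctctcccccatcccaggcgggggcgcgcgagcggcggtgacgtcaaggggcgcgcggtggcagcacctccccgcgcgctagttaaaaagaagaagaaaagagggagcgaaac
Ptch1: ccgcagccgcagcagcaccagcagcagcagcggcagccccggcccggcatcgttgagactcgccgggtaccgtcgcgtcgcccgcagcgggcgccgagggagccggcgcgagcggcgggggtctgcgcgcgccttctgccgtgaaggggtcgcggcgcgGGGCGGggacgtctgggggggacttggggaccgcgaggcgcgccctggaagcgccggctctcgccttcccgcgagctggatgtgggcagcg

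RefSeq windows from 250 bases before to 50 bases after the start were at hand for 7 of the 9 genes, all but Gli1 and Boc. None of the 7 held the Gli consensus 9-mer GACCACCCA on either strand, with no mismatch or with 1, and none held the TCF/LEF 7-mer ATCAAAG. Of 32851 windows of the same length, 0.253% held the Gli 9-mer exactly, 6.74% held it with at most 1 mismatch and 3.73% held the TCF/LEF 7-mer. These letters are absent from these short windows, which says nothing of binding elsewhere. The GC box, a motif added after the sequences were seen, occurred in the windows of Hhip, Ptch1, Gli2, Gli3 and Gas1 and in 35.7% of all windows. The windows of these named genes held 62.3% to 76.3% G and C, against a median of 52.7% over all windows. The GC box is itself all G and C, so choosing windows by it favours such values. Of the windows without it, that of Smo held 67.7% and that of Cdon 44.7%. The GC box begins 179 and 124 bases before the start of Hhip and 91 bases before that of Ptch1.

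Values are log2 scale outputs of robust multi-array average (RMA), which equalises the distributions of the arrays, so a difference is relative to the other genes and not to RNA per cell. Fewer cells of a type and less RNA per cell cannot be told apart in such bulk samples. Values of different probe sets depend on their probes and are not set against each other as levels. With 1 array a group there is no replicate error and no test, and each difference below (β-catenin siRNA minus control siRNA) is 1 subtraction. As a scale only, each is set beside the robust SD of the difference among the 1000 genes nearest in level, which mixes array noise, differences between cultures and any effect of the siRNA. Genes whose higher value reached 5.13, the median of all gene means, were called past the level filter, and 10197 genes were.

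The targeted transcript was lower in the β-catenin siRNA culture. Ctnnb1 had a value of 9.34 with β-catenin siRNA, against 10.48 with control siRNA, or 45.2% of the control signal. Dermal fibroblast markers were high on both arrays, with 15 of 15 measured markers past the filter. Of the keratinocyte markers, 10 of 16 were past the filter, which 10197 of all 19938 genes passed, and most stood higher with β-catenin siRNA. Krt5 and Krt14 were well past it, at 7.64 and 8.03 with control siRNA. The summed linear signal of the 16 keratinocyte markers was 1579 with β-catenin siRNA and 1078 with control siRNA. Most of that gap came from Krt5 and Krt14. Krt5, made by the basal layer of the epidermis, was 2.02-fold higher, and Krt17, Cdh1 and Krt14 were 1.54-fold to 1.73-fold higher. Krt15, under the filter on both arrays, differed by -0.55. By any amount 12 of the 16 were higher and 3 lower, against 8304 higher of all 19938 genes, and the median of the 16 was 0.21. Of 15 fibroblast markers, 3 were at least 1.5-fold higher with β-catenin siRNA, against 2.76% of all genes past the filter. They were the proteoglycan genes Lum (2.44-fold) and Dcn (1.79-fold) and the receptor gene Pdgfra (1.69-fold). None was 1.5-fold lower, the largest fall being that of Dpp4 (-0.53), and the median of the 15 was 0.07. Of 8 pericyte and smooth muscle markers, 5 passed the filter, and the summed signal of the 8 was 1452 with β-catenin siRNA and 2515 with control siRNA. Most of that gap came from the calponin gene Cnn1, with log2 values of 9.50 with β-catenin siRNA and 10.59 with control siRNA. The smooth muscle myosin gene Myh11 differed by -0.68, Mcam by -0.42 and the pericyte marker Notch3 by -0.32. The pericyte markers Cspg4 and Rgs5 differed by 0.20 and 0.30, with Rgs5 under the filter on both arrays. By any amount 4 of the 8 were lower and 3 higher, and the median of the 8 was -0.16. Of markers of other cell types, 1 of 9 endothelial, 1 of 9 macrophage, 3 of 7 melanocyte and none of 5 Schwann cell and 8 skeletal muscle markers passed the filter. The part of these shifts in cell type markers in the values below was not tested.

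**Figure D1:**
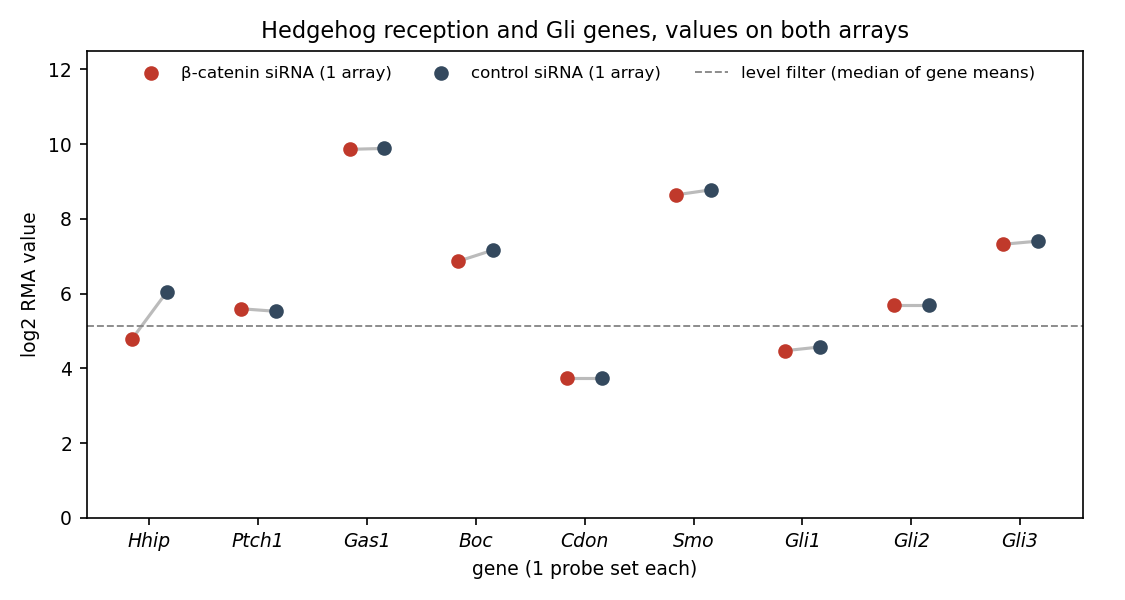
Log2 RMA values of the 9 genes (horizontal axis, 1 probe set each) with β-catenin siRNA (red, left point of each pair) and control siRNA (dark, right point); each point is 1 array and the dashed line is the level filter of 5.13. Hhip lies at 4.78 with β-catenin siRNA and 6.04 with control siRNA, on either side of the line, while the points of each other pair lie within 0.30 of each other.

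Of the 9 genes, 7 passed the level filter, and 1 of these 7, Hhip, was at least 2-fold lower with β-catenin siRNA. Among all genes past the filter, 0.333% were at least 2-fold lower and 1.84% at least 1.5-fold lower. None of the 7 was at least 1.5-fold higher, against 2.76% of all genes past the filter. The other 8 genes, filter or not, differed by less than 1.5-fold, and 4.58% of all measured genes differed by at least that in either direction. By any amount, 6 of the 9 were lower, 1 was higher and 2 had the same value on both arrays. Of all 19938 measured genes, 10466 were lower and 8304 higher by any amount. The median difference of the 9 was -0.08, and it was -0.05 without Hhip. The median over all genes past the filter was -0.02.

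Hhip encodes a membrane-anchored protein that binds Hedgehog ligands and keeps them from Ptch1. Its value was 4.78 with β-catenin siRNA and 6.04 with control siRNA, a difference of -1.26. The signal was thus 41.7% of that with control siRNA. The robust SD among genes of similar level was 0.26, so the difference was -4.93 times that SD. Of the 1000 genes nearest in level, 1 had a lower difference and 13 had a larger one in either direction. Among all genes past the filter, Hhip held place 10 counted from the lowest difference. The β-catenin siRNA value lay under the level filter, near the middle of all genes, with 46.1% of genes below it, whereas 60.4% of genes lay below the control value. The fold of 2.40 therefore rests on a dim signal on the β-catenin siRNA array. When the filter was asked of both values, Hhip dropped out and none of the 6 genes left was 1.5-fold lower, against 1.69% of all genes that met this stricter filter.

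Ptch1, the ligand receptor and itself a transcriptional readout of the pathway, did not share the Hhip difference. It stood at 5.60 with β-catenin siRNA and 5.53 with control siRNA, a difference of 0.07 in the opposite direction. That difference was 0.29 of the robust SD among genes of similar level, and 76.7% of the 1000 genes nearest in level differed by more. Both Ptch1 values lay not far above the level filter, with 55.0% of genes below the β-catenin siRNA value and 54.4% below the control value. The contrast with Hhip thus rests on modest signal for both genes. Gli1, the activator whose transcription depends most on the pathway, had 4.47 with β-catenin siRNA and 4.57 with control siRNA. Its difference was -0.10, and both values lay under the level filter, so that difference rests on dim signal. Thus, of the 3 readout genes, Hhip alone was at least 1.5-fold lower, Ptch1 differed little, and Gli1 was dim on both arrays.

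**Figure D2:**
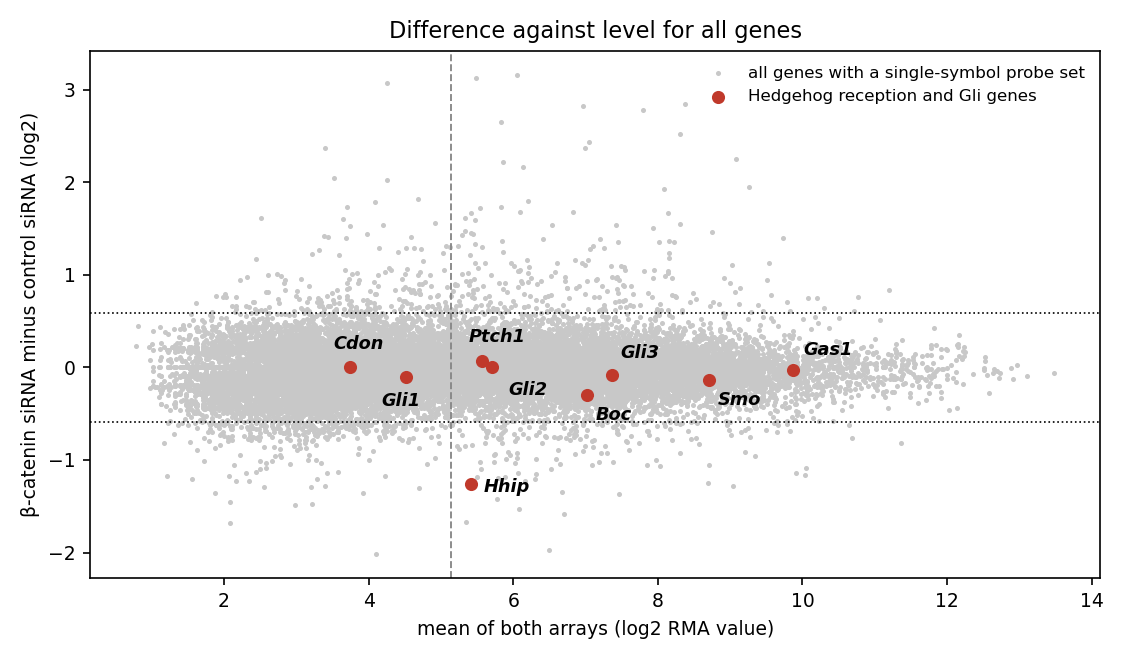
Difference between β-catenin siRNA and control siRNA (vertical axis, log2) against the mean of both arrays (horizontal axis, log2 RMA value) for 19938 genes (grey), with the 9 Hedgehog genes in red. Dotted lines mark 1.5-fold and the dashed line the level filter; Hhip lies at -1.26, and the other 8 lie inside the dotted lines, between -0.30 and 0.07.

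The co-receptors differed little. Gas1, a lipid-anchored protein that binds ligand together with Ptch1, had 9.86 with β-catenin siRNA and 9.89 with control siRNA, a difference of -0.02. Gas1 was a bright probe set, with 97.3% of genes below it on each array. Boc, an immunoglobulin superfamily co-receptor, had 6.87 with β-catenin siRNA and 7.17 with control siRNA. The Boc difference of -0.30, or 81.3% of the control signal, came next after that of Hhip in size and was 1.39 times the robust SD of 0.22 among genes of similar level. Of those 1000 genes, 19.6% differed by more than Boc, in either direction. Cdon, a close relative of Boc, had a value of 3.74 on both arrays. That lies under the level filter, and the annotation ties the probe set to a predicted transcript model only, so these arrays give little on Cdon.

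Smo, the seven-pass membrane protein that carries the signal inward, had 8.64 with β-catenin siRNA and 8.78 with control siRNA. Its difference of -0.13 was 0.75 of the robust SD of 0.18 among genes of similar level. Gli3, the main repressor of the family when the pathway is off, had 7.32 with β-catenin siRNA and 7.40 with control siRNA, a difference of -0.08. Gli2, the main activator, had 5.71 on both arrays. Equal values to the last deposited digit, as for Gli2 and Cdon, were not rare: they made up 1.37% of genes past the filter and 10.6% of the 9741 genes under it. Across the 3 Gli factors the differences ran from -0.10 to 0, a narrower range than the robust SD of 0.22 over all genes past the filter.

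The other genes of the pathway were taken from fixed lists. For ligands and ligand release, 4 of 9 measured genes passed the filter, and the median of the 4 was -0.22. None of the 4 differed by 1.5-fold, while among all genes past the filter 1.84% were lower and 2.76% higher by that much. All 4 were lower by any amount, against 5386 of all 10197 genes past the filter. Without the filter the median of the 9 was 0.06, and the 5 genes that stood higher were all under the filter on both arrays. The sign of the median thus depended on dim genes. Ihh, a ligand best known from cartilage, differed by -0.34. Scube1, of a family of secreted proteins that take part in ligand release, differed by -0.28. Disp1, the transporter that exports lipid-modified ligand, differed by -0.16, and Hhat, which attaches the palmitate, by -0.13. The ligands Shh and Dhh were dim. Shh had 4.61 with β-catenin siRNA and 4.43 with control siRNA, and Dhh had 3.83 with β-catenin siRNA and 3.34 with control siRNA. All 4 of these values lie under the filter.

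The list of further receptors and co-receptors held 2 glypicans past the filter, both higher. Gpc3, a heparan sulphate proteoglycan that in mouse binds Hedgehog ligands and competes with Ptch1 for them, had 8.90 with β-catenin siRNA and 8.09 with control siRNA. The difference of 0.81 was 1.75-fold higher, and both values were well past the filter. Gpc6, another glypican, differed by 0.48. Lrp2, the endocytic receptor megalin, differed by -0.37, with 4.77 with β-catenin siRNA and 5.14 with control siRNA, a pair at the edge of the filter. These were the 3 of 5 measured genes past the filter in the list of further receptors.

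None of the intracellular regulators differed by 1.5-fold. Among all genes past the filter 1.84% were lower and 2.76% higher by that much, so a count of 0 in a short list lies near these shares. Of 28 measured regulators of Smo and the Gli proteins, 26 passed the filter, with differences from -0.17 to 0.24 and a median of 0.04. Sufu, which tethers the Gli proteins in the cytoplasm, differed by 0.14, and Kif7, the ciliary kinesin that organises Gli at the cilium tip, by -0.05. The largest differences in size were those of Ankmy2 (0.24), which in mouse controls adenylyl cyclase at the cilium, Arrb2 (0.20), which encodes a β-arrestin, and the kinase gene Ulk3 (0.18). Tulp3, an adaptor for the traffic of receptors into the cilium, differed by -0.17. Intraflagellar transport builds the primary cilium in which Smo acts. Of 22 measured genes of that machinery, 21 passed the filter and none differed by 1.5-fold, again near the shares of all genes. By any amount 15 of the 21 were higher, against 4671 of all 10197 genes past the filter. The median of the 21 was 0.09, against -0.02 for all genes past the filter. Wdr19 (0.40), Ift57 (0.33), Dync2li1 (0.30, under the filter with control siRNA) and Ift88 (0.25) had the largest differences of the 21.

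**Figure D3:**
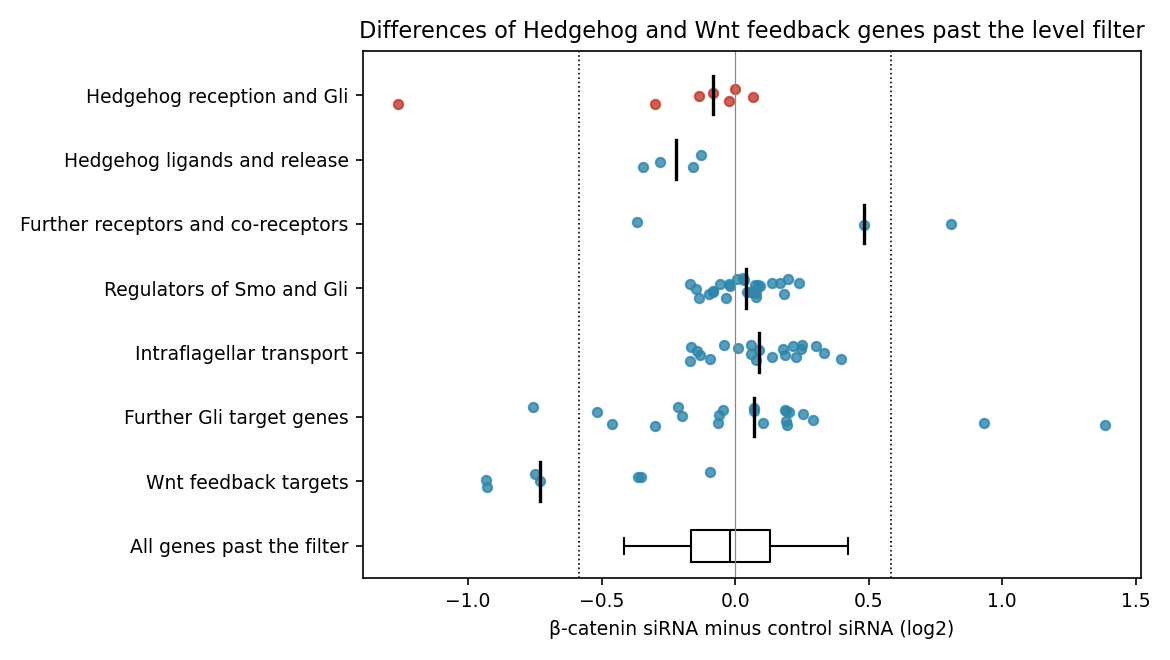
Differences between β-catenin siRNA and control siRNA (horizontal axis, log2) of genes past the level filter in each list, 1 point per gene, with black bars at the list medians; points are spread vertically for legibility, and dotted lines mark 1.5-fold. The box at the bottom shows the median and quartiles of all 10197 genes past the filter, with whiskers at the 5th and 95th percentiles (-0.41 and 0.42); regulators and intraflagellar transport genes lie inside the dotted lines, while Wnt feedback genes have a median of -0.73.

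Further genes known as Gli targets in one tissue or another went both ways. Of 31 measured, 21 passed the filter, with a median of 0.07. At 1.5-fold or more, 2 of the 21 were higher and 1 was lower, against 2.76% and 1.84% of all genes past the filter. Sox9, a transcription factor gene of chondrocytes and hair follicle stem cells, had 7.11 with β-catenin siRNA and 5.72 with control siRNA, a difference of 1.39. Sfrp1, a secreted Wnt antagonist gene, had 7.48 with β-catenin siRNA and 6.55 with control siRNA, a difference of 0.93. Grem1, a secreted BMP antagonist gene, had 8.14 with β-catenin siRNA and 8.90 with control siRNA, a difference of -0.76. Ccnd1, which encodes cyclin D1, differed by -0.52, and Mycn, a dim probe set, by -0.11. Sox9 and Ccnd1 are regulated by other pathways as well, and Ccnd1 is a known target of Wnt/β-catenin signalling. Thus the wider target list had no common direction. Of the core readout genes, Hhip was lower. Gli1 and Ptch1 differed by less than the robust SD among genes of similar level, so their signs give no direction.

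For comparison, feedback genes of the Wnt pathway were lower. Of 13 measured, 7 passed the filter, and all 7 stood lower by any amount, against 5386 of all 10197 genes past the filter. The median of the 7 was -0.73. In 4 of the 7 the fold was at least 1.5, against 1.84% of all genes past the filter. Over all 13, without the filter, the median was -0.37. Nkd2 and Nkd1, which bind Dishevelled and dampen Wnt signalling, both differed by -0.93, Axin2, which helps assemble the complex that degrades β-catenin, by -0.75, and the membrane-bound Wnt inhibitor gene Apcdd1 by -0.73. The 3 Hedgehog readout genes had differences of -1.26, -0.10 and 0.07. No test of the difference between these lists was possible with 1 array a group.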

How the data were processed

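The authors deposited RMA values, here taken as log2 because they range from 0.485 to 13.5, and RMA is named in the submitters' processing notes. The software behind it is not given in the sources used here. The 300 ng of total RNA was labelled for Affymetrix whole-transcript arrays, per the labels' protocols. Of 28944 probe sets, 21789 had 1 gene symbol, 1621 several and 5534 none in the platform annotation; symbols of 21698 were updated through a RefSeq table (GRCm38.p6), and of several probe sets the brightest by mean was used. Differences were log2 β-catenin siRNA minus log2 control siRNA, computed in Python 3.11.15 with pandas 2.3.3, and counted at 1.5-fold and 2-fold. No p-value, test or SD between replicates is given, since each group has 1 array, and that number limits the precision. The robust SDs printed are spreads over genes. The counting was run on simulated differences with shifts of known size, which checks the arithmetic only and not the level filter or the probe set choice. Alternatives were other centring, scaling, probe set choice, background and level filters. The members and lists were chosen with earlier results of these data known. Named are the 9 genes, Ctnnb1, a fixed set of pathway genes, and from each list the members past 1.5-fold or among the 4 largest differences past the filter; this naming was applied to the other markers only where they differed with the cultures.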

Additional observations from a re-analysis of the deposited data

How the results depend on the processing

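The 9 differences were recomputed under 6 alternatives (median or lowess centring with a span of 0.3, the mean of probe sets, the dimmest probe set, quantile normalization, and subtraction of each array's 5th percentile on the linear scale). Each moved by less than the robust SD among genes of similar level. The alternatives on probe sets could not change them, since each gene had 1. Median centring shifts every gene by the same 0.02. Before quantile normalization the sorted values of the arrays already differed by at most 0.12. Both could thus move a difference only a little. Hhip ranged from -1.37 to -1.24, Boc from -0.31 to -0.28 and Ptch1 from 0.03 to 0.09. Differences of Gas1 and Gli2 near 0 had no fixed sign; that of Gas1 reached 0.01 and that of Gli2 ran from -0.04 to 0.02. That of Cdon ran from 0 to 0.04. With both values required past the filter, the count of the 9 genes at least 1.5-fold lower and that at least 2-fold lower were each 0, because Hhip is then not counted, and 56 of all genes were at least 2-fold higher. Without the level filter, where more dim genes are counted, 469 of all genes were lower and 444 higher by 1.5-fold or more, against 188 and 281 with it, and 64 were lower by 2-fold or more, against 34. The median of the ligand list was then 0.06 in place of -0.22. No paired analysis was possible because each group has 1 array, which also means that none could be left out. Dim signal limits Hhip, Gli1 and Cdon, and the values of Ptch1 and Gli2 lie not far above the level filter.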

Other observations

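Hhip is also a gene of the dermal papilla, the mesenchymal cluster at the base of the hair follicle, and the papilla genes went both ways. Of 12 papilla genes past the filter, 4 were lower by any amount with β-catenin siRNA, against 5386 of all 10197 genes past the filter. Of these 4, Hhip alone was lower by at least 1.5-fold, against 1.84% of all genes past the filter. At that fold 5 stood higher, against 2.76% of all genes past the filter, and the median of the 12 was 0.36. Over all 25 measured papilla genes, without the filter, the median was 0.10. By at least 1.5-fold, 7 of the 25 were higher and 3 lower, against 444 and 469 of all 19938 genes. The 3 lower were Hhip, Notum (-0.66) and Spon1 (-0.60), the last 2 being dim on both arrays and named after their values were seen. Fgf10 (0.79) and Rspo2 (0.79), likewise dim on both arrays, were among the 7 higher. Fgf7, a growth factor for keratinocytes, had 9.80 with β-catenin siRNA and 6.96 with control siRNA. Igfbp3, whose product binds insulin-like growth factors in the circulation, had 9.19 with β-catenin siRNA and 6.41 with control siRNA. Sfrp2 and Rspo3, an inhibitor and an enhancer of Wnt signalling, were 2.62-fold and 1.89-fold higher, and Bmp6 was higher by 0.60 on the log2 scale. Ptch1, the other Hedgehog gene of that list, differed by 0.07.

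Hhip was among 218 genes that were past the level filter with control siRNA and under it with β-catenin siRNA, a selection that fixes a negative difference. A further 269 genes were past the filter with β-catenin siRNA and under it with control siRNA.

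Over all 19938 genes, 1168 (5.86%) had equal values on both arrays to the last deposited digit. Of the 1000 genes nearest in level to Cdon, 86 did, and of those nearest to Gli2, 30.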
